A study of Mus musculus with 4 samples.

Results

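The peaks described here are the Zeb1 peaks of the deposited list whose annotation column places the peak centre at a transcription start site (TSS) identified by an Ensembl gene, while the gene named beside the peak has its RefSeq TSS more than 5 kb away. They were selected by that annotation alone, without use of any measured value, and number 527 of the 17435 peaks in the list. The study profiled Zeb1 by ChIP-seq in D3 mouse embryonic stem cells (mESC) kept in GS, a medium with the inhibitors PD0325901 at 1 μM and CHIR99021 at 3 μM and with LIF at 20 ng/mL. Chromatin was fixed with 1% formaldehyde, sheared to about 200 bp and precipitated with 8 μg of the anti-Zeb1 antibody H-102 in 3 ChIP libraries, against 1 Input library from the same cells in the same medium. The authors unified the peaks over the ChIP libraries, so that each peak has a single mean number of treatment reads, a single mean number of Input reads and a single mean enrichment over Input. There are no values per library, so no spread between replicates can be given. The intervals below cover counting error for shares and the spread among peaks for medians and their ratios. Peaks of a single list are not replicates, so no interval covers error between libraries.

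Many mammalian genes are transcribed from several promoters, and the start in use can change the first exon, the protein's amino end or the tissue in which the gene is expressed. Gene catalogues differ in how many such starts they hold, because Ensembl includes many transcript models, among them partial ones, long non-coding RNAs (lncRNAs) and pseudogenes, that the curated RefSeq set leaves out. Zeb1 is a zinc finger and homeodomain repressor that binds E-box sequences containing CACCTG, recruits corepressors and silences epithelial genes during the epithelial-to-mesenchymal transition (EMT). Vertebrate promoters are of broad classes, those within CpG islands, where the CpG dinucleotide has escaped the depletion seen in the rest of the genome, and those without.

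The sequences below show the 200 bases before the Ensembl start of members that recur in the results, read 5′ to 3′ on the strand of the Ensembl transcript from GRCm38 (mm10). In Kdm2b (minus strand, chr5:122951991-122952190), Scube3 (plus strand, chr17:28165609-28165808) and Tmem178b (plus strand, chr6:39873071-39873270), starts inside or near coding genes, capitals mark the match of the Zeb1 motif [CT]N[CT]ACCTG, which in all 3 lies on the opposite strand and therefore reads CAGGT[AG]N[AG] in its reverse complement.
Kdm2b: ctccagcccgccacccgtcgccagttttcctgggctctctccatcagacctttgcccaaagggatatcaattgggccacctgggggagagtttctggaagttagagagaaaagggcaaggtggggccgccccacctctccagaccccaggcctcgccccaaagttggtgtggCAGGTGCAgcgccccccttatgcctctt
Scube3: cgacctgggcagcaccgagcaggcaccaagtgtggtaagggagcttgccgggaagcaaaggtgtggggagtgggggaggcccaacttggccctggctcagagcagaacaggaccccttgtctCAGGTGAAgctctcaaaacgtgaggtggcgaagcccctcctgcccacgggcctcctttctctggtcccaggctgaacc
Tmem178b: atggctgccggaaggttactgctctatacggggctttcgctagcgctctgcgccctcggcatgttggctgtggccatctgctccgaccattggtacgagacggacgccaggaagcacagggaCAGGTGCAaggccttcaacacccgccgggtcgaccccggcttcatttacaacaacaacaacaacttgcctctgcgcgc
The match ended 20 bases before the start in Kdm2b and 70 bases before it in both Scube3 and Tmem178b. For comparison, the starts of 2 long intergenic non-coding RNA (lincRNA) genes, C130071C03Rik (plus strand, chr13:83721181-83721380) and Gm26901 (minus strand, chr1:7397870-7398069), held no such match, and capitals there mark each CpG, of which they had 10 and 15.
C130071C03Rik: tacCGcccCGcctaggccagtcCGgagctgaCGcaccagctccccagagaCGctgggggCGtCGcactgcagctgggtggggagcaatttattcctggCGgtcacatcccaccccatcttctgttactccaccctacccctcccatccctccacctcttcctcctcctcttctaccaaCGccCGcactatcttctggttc
Gm26901: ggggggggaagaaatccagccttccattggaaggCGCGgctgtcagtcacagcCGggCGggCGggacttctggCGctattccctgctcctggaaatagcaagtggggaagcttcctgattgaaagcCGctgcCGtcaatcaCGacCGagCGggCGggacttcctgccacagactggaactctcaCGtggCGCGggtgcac
The GC content of these stretches was 61.5% in Kdm2b, 63.5% in Scube3, 60.5% in Tmem178b, 62.5% in C130071C03Rik and 63.0% in Gm26901. All 5 stretches hold annotated exon sequence, none holds an annotated UTR, and all were chosen after the values were seen.

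The annotation held for nearly all members when it was checked against GENCODE M21. Of the 527 Ensembl identifiers, 516 were in that catalogue and 11 were not. Of the 516, 488 (94.6%, 95% Wilson interval 92.3 to 96.2%) had the peak centre between 1000 bp before and 100 bp after a start of the Ensembl gene, the window from which the annotation appears to draw, and in 500 the start lay inside the peak. The 527 peaks fell on 503 Ensembl genes, 24 of them with 2 peaks, and were listed under 493 named genes. The limit of 5 kb came close for some. The members nearest to it were peaks at Nr2f6 (listed under Ocel1), Nbea (Mab21l1) and Igsf8 (Igsf8), at 5027, 5040 and 5068 bp from the RefSeq TSS, and the last promoter peaks inside it were at Deaf1, Sh3gl3 and Hexim2, at 5000, 4992 and 4991 bp. Of the members, 380 were more than 10 kb, 113 more than 50 kb and 50 more than 100 kb from the RefSeq TSS of the named gene, and the farthest, a start of Ptprd listed under Tmem261, was at 1171739 bp.

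By their Ensembl gene, the members were of unlike kinds. An alternative start of the named gene itself accounted for 193 peaks when symbols, synonyms and identifiers were matched, or 36.6% (32.6 to 40.8%), and for 184 by symbol alone, or 34.9% (31.0 to 39.1%). A further 150 peaks (28.5%) lay at the start of another protein-coding gene, 69 (13.1%) at a lncRNA, 81 (15.4%) at a pseudogene, 15 at a small RNA and 8 at a model that the catalogue lists as awaiting experimental proof (TEC). Peaks at a start of the named gene were thus outnumbered by peaks at starts of other genes. Of the 81 pseudogene members, 73 were processed pseudogenes, the intronless copies that retrotransposition of an mRNA leaves behind, and 5 more were transcribed copies of that kind. The lncRNA members comprised 33 lincRNAs, 22 antisense transcripts, 9 of the processed transcript class, 3 sense-intronic transcripts and 1 each of a pair of smaller classes.

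Among the members as a whole, with peaks of all lengths, Zeb1 enrichment was closer to that of promoter peaks than to that of the pooled other distal peaks. Their median enrichment over Input was 6.5 (quartiles 5.0 to 8.32, 95% interval of the median 6.20 to 6.71). The 10698 promoter peaks had a median of 6.74 (6.70 to 6.80) and the 6210 other peaks beyond 5 kb a median of 5.94 (5.85 to 6.05), so that the ratio of medians was 0.964 (0.912 to 1.002) to the former and 1.09 (1.02 to 1.15) to the latter. The other distal peaks were themselves mixed, with medians of 6.6 (6.41 to 6.8) in exons and 6.4 (6.20 to 6.61) at transcription termination sites, near the members' value, and of 5.75 in introns and 5.64 in intergenic sequence. The direction of the ratio to the other distal peaks did not hold throughout. It was 0.961 when peaks were compared within bins of 5 points of GC content and 0.948 among peaks enriched at least 5-fold, and the causes were not tested. In peaks of 1500 to 2500 bp the ratio was 1.01 to the other distal peaks and 0.979 to promoter peaks. At that length the members were thus not closer to promoter peaks. The authors' enrichment exceeded the plain quotient of both read means, by a median factor of 2.04 among members. The members had a median of 44.2 treatment reads and 14.5 Input reads, against 52.6 and 17 in promoter peaks and 37.8 and 14 in the other distal peaks. Their median length was 1900 bp, between the 1950 bp of promoter peaks and the 1600 bp of the other distal peaks.

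Among the kinds of Ensembl gene, pseudogenes and small RNAs had the lowest median enrichment. Median enrichment was 6.55 (6.10 to 6.95) at alternative starts of the named gene, 6.81 (6.41 to 7.5) at other coding genes and 6.80 (6.24 to 7.6) at lncRNAs. At pseudogenes it was 5.10 (4.65 to 5.75), and in the 15 small RNA peaks it was 5.17, with a wide interval of 4.39 to 9.46. These intervals cover the spread among peaks of a single list and are no test of a difference between groups. Pseudogene peaks also had fewer treatment reads, with a median of 29.5 against 46.4 at the named gene, were shorter, at 1350 bp against 2000 bp, and had less GC, at 48.2% against 56.7%. Per kb of peak, they had 20.8 treatment reads and 8.30 Input reads, against 23.2 and 7.41 at the named gene. Within bins of GC the gap was not of a single direction. In peaks of 45 to 50% GC the median enrichment was 5.61 in 34 pseudogene peaks and 5.47 in 11 peaks at the named gene or another coding gene. In those of 50 to 55% it was 5.73 in 24 and 6.06 in 99, and in those of 55 to 60% it was 5.93 in 6 and 7.03 in 195. At 40 to 45% GC, 15 pseudogene peaks had a median of 3.7, and the other side had 1 peak, at 2.5. Named-gene peaks here include 1 lincRNA, 1 processed pseudogene and 1 transcribed unprocessed pseudogene. The 11 peaks whose identifier was not in GENCODE M21 had a median of 9.30, with an interval of 4.35 to 12.03 that spans most of the other groups.

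**Figure D1:**
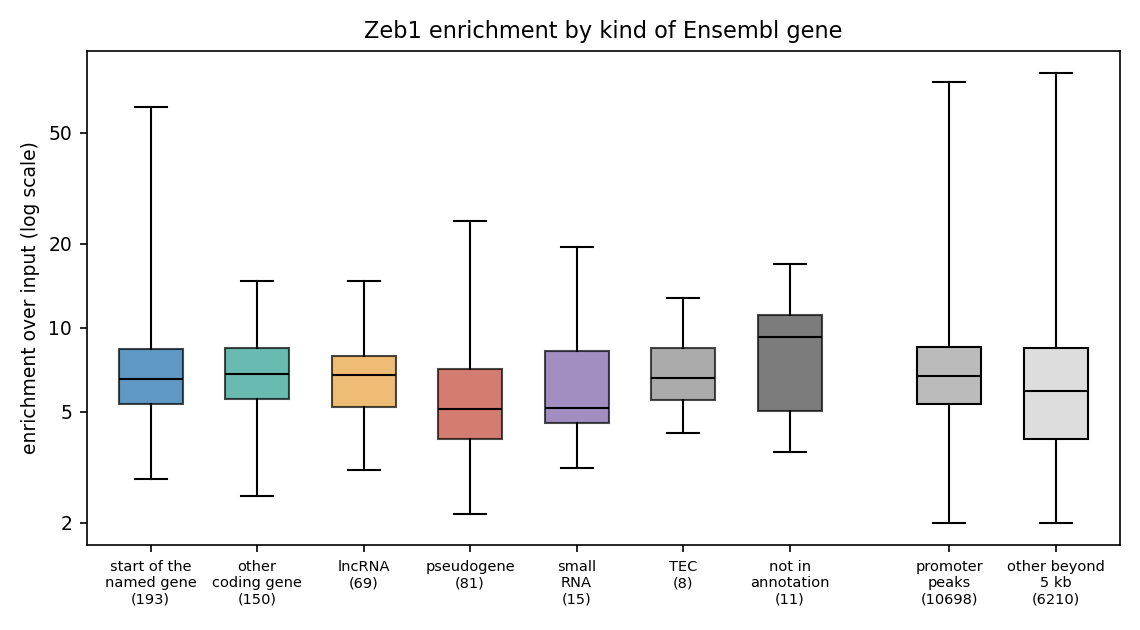
Zeb1 enrichment over Input (log scale) of the 527 members by kind of Ensembl gene, with promoter peaks and other peaks beyond 5 kb beside them. Boxes are quartiles with the median, whiskers the lowest and highest peak, and the number of peaks is under each name, and pseudogene peaks had a median of 5.10, and peaks at the named gene, other coding genes and lncRNAs had medians of 6.55, 6.81 and 6.80.

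Mpped1, which encodes a metallophosphoesterase domain protein, had the member with the highest enrichment, 61.7, in exon 2 of 7 at 12052 bp downstream of the RefSeq TSS. That value rested on little background, since the peak had 31.5 treatment reads and 1 Input read. Next came Gm6802, a transcribed pseudogene, with 24.2, and C130071C03Rik, the host transcript of the neuronal microRNA gene Mir9-2, with 22.8 and 40 treatment reads. Gm13140, a pseudogene on Chr. 4, had 21.3 and the 5S ribosomal RNA copy n-R5s136 had 19.5. An identifier absent from GENCODE M21 and listed under Hrnr had 16.95. All 6 of these peaks had 5 Input reads or fewer. The rest of the 10 highest had from 7.50 to 14.4 Input reads and enrichments of 14.7. They were Svil, which encodes the actin-binding protein supervillin, the lincRNA Gm26901, Pik3ca, which encodes the catalytic subunit of phosphoinositide 3-kinase, and Nek8, a kinase of the primary cilium. None of these 4 starts belonged to the gene named in the list, which was Gm10556, Pcmtd1, Zmat3 and Traf4, respectively.

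The 5 peaks with the most treatment reads ranged from 2150 to 9000 bp in length. Polrmt, which encodes the mitochondrial RNA polymerase, had the most, with 240.5 treatment reads over 9000 bp, 45.5 Input reads and a 9.53-fold enrichment. Its peak was centred in exon 14 of 21, 8731 bp downstream of the RefSeq TSS, at the start of a model with a retained intron. Tmem178b, listed under Mrps33, had 200.1 treatment reads over 3200 bp and an enrichment of 13.04, and Atn1, which encodes the corepressor atrophin 1 and is listed under Grcc10, had 183.2 over 4500 bp. Atn1 had 66 Input reads, the most of any member, and an enrichment of 5.66. The 2 others were Gm8108 with 172.9 over 2150 bp and the predicted microRNA Gm47297, within Bahcc1, with 167 over 6450 bp. At the other end, the 3 lowest enrichments were at Zfp982 (2.50), Vmn2r-ps19 (2.25) and Gm13234 (2.15). All 3 lay between 144 and 148 Mb of Chr. 4, and they had 40.5, 29 and 24.5 Input reads.

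**Figure D2:**
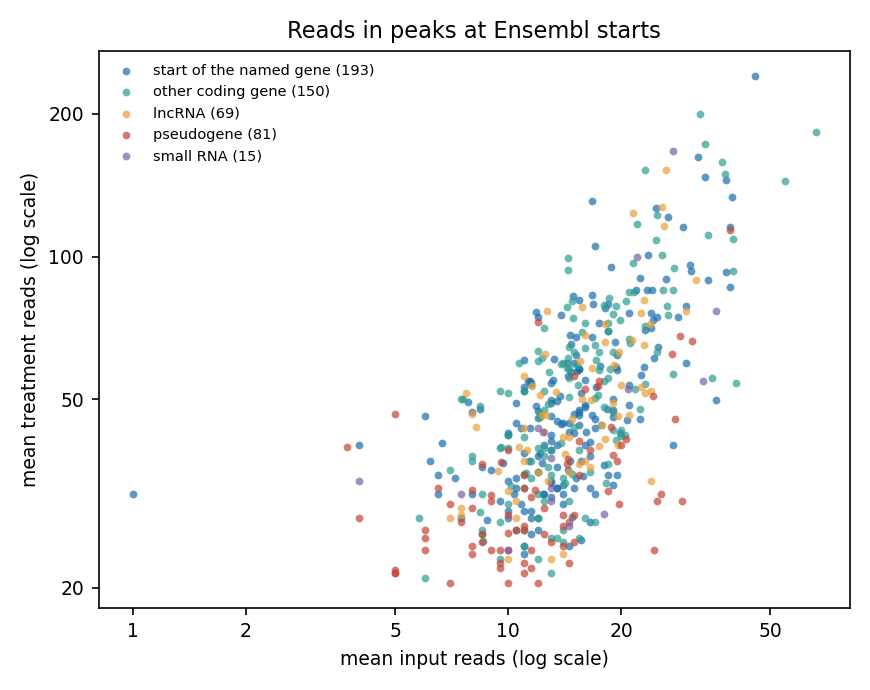
Mean treatment reads against mean Input reads (both on log scales) of the members in the 5 largest groups, with 1 point for each peak. Mpped1 is the point at 1 Input read, and Polrmt is the highest at 240.5 treatment reads.

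That stretch of Chr. 4, which holds a large cluster of zinc finger genes and their pseudogenes, had 10 members, 9 of them pseudogenes, and was singled out after its values were seen. Their median of 26.5 Input reads stood above the 14.5 of the members elsewhere, and per kb they had 15.6 against 7.35. Treatment reads per kb were 24.5 and 22.9. Input was also raised in the 8 other distal peaks of the stretch, which had 19 Input reads, 11.4 Input reads per kb and a median enrichment of 3.15. The median enrichment was 4.67 in the stretch and 6.52 elsewhere, with a range from 2.15 to 21.3 (Gm13140) in the stretch. Without these peaks, the median of the remaining 72 pseudogene members was 5.55. Chr. 4 as a whole held 72 members, or 13.7%, against 7.34% of all peaks, and 23 of its members were pseudogenes. Chr. 11 followed with 56 members, or 10.6%, against 8.02% of all peaks, and Chr. X had 2.

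Among alternative starts of the named gene, most peaks lay inside the gene body. Of the 190 that were protein-coding, 165 of the Ensembl starts (86.8%) fell inside the span of the curated RefSeq transcripts, at a median of 8868 bp from the nearest curated start, 24 lay upstream of all of them and 1 could not be placed. The peaks with upstream starts had a median enrichment of 6.92 and the internal ones 6.39. After Mpped1 and C130071C03Rik, the highest enrichments in this group were at Llgl2 (14.6), a component of the cell polarity machinery, Lats2 (14.5), a Hippo pathway kinase, and Kcnt1 (14.4), a sodium-activated potassium channel. The Llgl2 peak spanned 7300 bp and was centred on a SINE 28392 bp from the TSS. The Lats2 peak lay in exon 4 of 8, at 34468 bp, and the Kcnt1 peak in intron 15 of 31, at 22864 bp. Each of these 3 genes also had a promoter peak (the highest, where a gene has several), with an enrichment of 6.11, 5.50 and 6.20. Genes chosen for a high internal start will tend to have a lower promoter peak, and over all 105 coding members of this group whose gene has a promoter peak the start was the higher in 51 and the lower in 54.

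The 150 peaks at other coding genes pose a question of assignment, since the gene in the list is a neighbour of the gene that starts at the peak. Of their Ensembl starts, 71 (47.3%) lay outside the named gene on the opposite strand, 68 (45.3%) outside it on the same strand, 4 inside it on the opposite strand and 0 inside it on the same strand, and 7 named genes could not be matched. Within the span of their own curated RefSeq transcripts lay 125 (83.3%) of the starts. Bcor, listed under 2900008C10Rik, encodes a corepressor that is a subunit of a variant Polycomb complex. Its peak had an enrichment of 14.3 with 37 treatment reads, at a start 31946 bp downstream of the curated ones. Scube3, which encodes a secreted protein with epidermal growth factor repeats, had 13.8 in intron 15 of 21, while the list gives Zfp523. At Pik3ca, the Ensembl start was 606 bp from a curated start of Pik3ca in the reference used here.

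The lncRNA members stood out by the CpG content of their whole peaks more than by enrichment. Apart from C130071C03Rik, a lincRNA that is also the named gene and is counted there, the 5 highest were Gm26901 (14.7, listed under Pcmtd1), Gm5784 (13.2, under 5730507C01Rik), Gm43573 (13.1, under Lphn2), Gm14964 (12.3, under Slc22a12) and Gm10419 (10.96, under Pde6b). Gm43573, an antisense transcript, had 152.6 treatment reads over 4300 bp, and Gm10419 had 127 over 4100 bp. Of the 69 lncRNA starts, 13 lay inside the named gene on its opposite strand, 31 outside it on the same strand and 22 outside it on the opposite strand. The antisense class had a median enrichment of 5.11 and the lincRNA class one of 7.0. At pseudogenes, the peaks below Gm6802 and Gm13140 were Gm8752 (13.7), near the major histocompatibility gene H2-Q9, Gm15645 (13.1) and Gm8399 (9.92). By a count made after the values were seen, 4 of the pseudogene members had the symbol of a ribosomal protein gene copy (parents of the others were not looked up), with enrichments from 4.0 to 6.6.

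The transcript models at these starts differed in kind from the catalogue as a whole, which includes the starts within 5 kb of the RefSeq TSS of the named gene that the selection leaves out. For the 340 members at coding genes, the model whose start was nearest to the peak centre was of the protein-coding type in 140 (41.2%, 36.1 to 46.5%), had a retained intron in 96 (28.2%, 23.7 to 33.2%), was a processed transcript without an open reading frame in 92 (27.1%, 22.6 to 32.0%) and was subject to nonsense-mediated decay in 11. Among all 101652 GENCODE transcripts of coding genes, 57.8% were of the protein-coding type, 21.1% had a retained intron and 13.98% were processed transcripts. Of the 340 models, 73 (21.5%) were in the basic set of representative models, against 44.4% in the catalogue. Transcript support level 1, the best of that scale, was held by 83 (24.4%, catalogue 38.0%), and level 3, support by a single expressed sequence tag, by 97 (28.5%, catalogue 15.5%). Level 2 was held by 17.6% (catalogue 12.5%) and level 5, the lowest, by 27.4% (catalogue 20.7%), while 2.06% had no level, against 13.34% in the catalogue, so the shares of the levels are not strictly comparable. Among the 3 larger types enrichment differed little, with medians of 6.52 (6.11 to 7.15) for protein-coding models, 6.59 (5.91 to 7.50) for retained introns and 6.64 (6.06 to 7.30) for processed transcripts, and the 11 models subject to nonsense-mediated decay had 7.49 (5.5 to 11.66).

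A share of the members also had a RefSeq start near the peak centre in the release used here. That start may be of any gene and need not be the Ensembl start. Of the 527 members, 185 (35.1%, 31.2 to 39.3%) had a RefSeq start within 1 kb of the peak centre, against 6.51% of the other peaks beyond 5 kb, a difference of 28.6 percentage points (Newcombe interval 24.6 to 32.8). Curated transcripts alone gave 91 (17.3%, 14.3 to 20.7%) against 2.03%. The members were selected for an annotated Ensembl start, and the other distal peaks are those annotated neither so nor as promoter. A gap in this direction therefore follows from the selection. Among members, the share with any RefSeq start within 1 kb differed between groups. It was 45.6% at starts of the named gene, 33.3% at other coding genes, 40.6% (29.8 to 52.4%) at lncRNAs, 6.17% (2.67 to 13.6%) at pseudogenes and 53.3% (30.1 to 75.2%) at the 15 small RNAs. By type of model, it was 58.6% for protein-coding models and 16.7% for models with a retained intron. Median enrichment was 6.85 (6.55 to 7.43) in the 185 peaks with such a start and 6.1 (5.8 to 6.51) in the 342 without, and the share of peaks with an observed over expected CpG ratio of at least 0.6 was 50.8% and 11.7%.

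The peaks were centred less tightly on their start than promoter peaks. Within the window of 1000 bp before to 100 bp after an Ensembl start, the median position of the 488 member centres was -134 bp (95% interval -166 to -96.0), where a negative sign is upstream, with quartiles of -386 and -5.25. For 5387 promoter peaks annotated in the same window the median was -31.0 bp (-37.0 to -27.0), with quartiles of -182 and 23.0. The centre was less than 250 bp upstream, or downstream, in 64.3% of members and 81.3% of promoter peaks. It was more than 500 bp upstream in 18.9% and 7.26%. The window reaches much farther upstream than downstream, so looser centring within it can show almost only as an upstream shift. Relative to the RefSeq TSS of the named gene, 302 members (57.3%) lay downstream, among them 141 of the 193 at a start of the named gene, with the sign read as the reference has it and not as the list's legend states it.

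**Figure D3:**
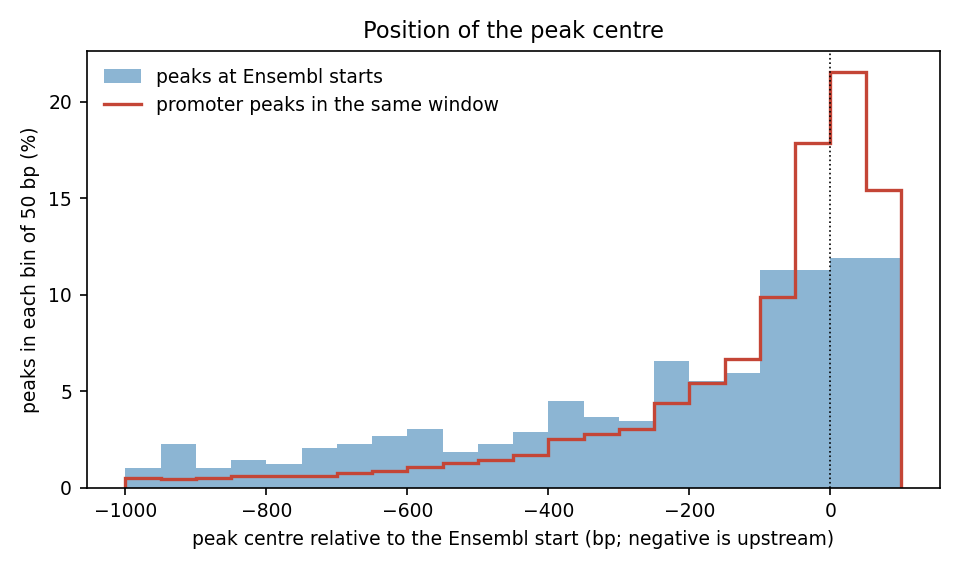
Share of peaks (percent, in bins of 50 bp) by the position of the peak centre relative to the Ensembl start (bp, negative upstream), for 488 members (filled) and 5387 promoter peaks in the same window (line). The promoter peaks gather at the start, with a median of -31.0 bp, and the members spread more widely, with a median of -134 bp. The window leaves room for spread almost only upstream.

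In base composition, the members stood between promoters and the pooled other distal peaks. Their median GC content was 55.7% (55.3 to 56.2%), against 56.8% in promoter peaks and 52.3% in the other distal peaks, although distal exon peaks (55.8%) and those at termination sites (55.6%) had the GC of the members. The median observed over expected CpG ratio was 0.452 (0.429 to 0.485), against 0.643 and 0.339, with 0.372 in distal exon peaks and 0.330 at termination sites. A ratio of at least 0.6 was found in 134 members, or 25.4% (21.9 to 29.3%), which was 18.5 percentage points (14.9 to 22.4) above the other distal peaks while the share in promoter peaks was 59.9%. Within 500 bp at the peak centre the ratio reached 0.6 in 49.0% of members, 78.3% of promoter peaks and 21.6% of the other distal peaks. Over whole peaks, the lncRNA starts were closest to promoters, with a median ratio of 0.592 and a ratio of at least 0.6 in 34 of 69 peaks (49.3%, 37.8 to 60.8%). At starts of the named gene the share was 26.9%, at other coding genes 17.3% and at pseudogenes 16.05%. Among these groups, the order was another in the 500 bp at the centre. The share there was 68.1% at lncRNAs, 54.3% at pseudogenes, 47.2% at starts of the named gene and 36.7% at other coding genes. The median ratio in these 500 bp was 0.733 at lncRNAs, 0.804 in the 8 TEC peaks and 0.794 in promoter peaks. Members with a ratio of at least 0.6 had a median enrichment of 6.80 (6.43 to 7.40) and the others 6.25 (6.0 to 6.6).

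**Figure D4:**
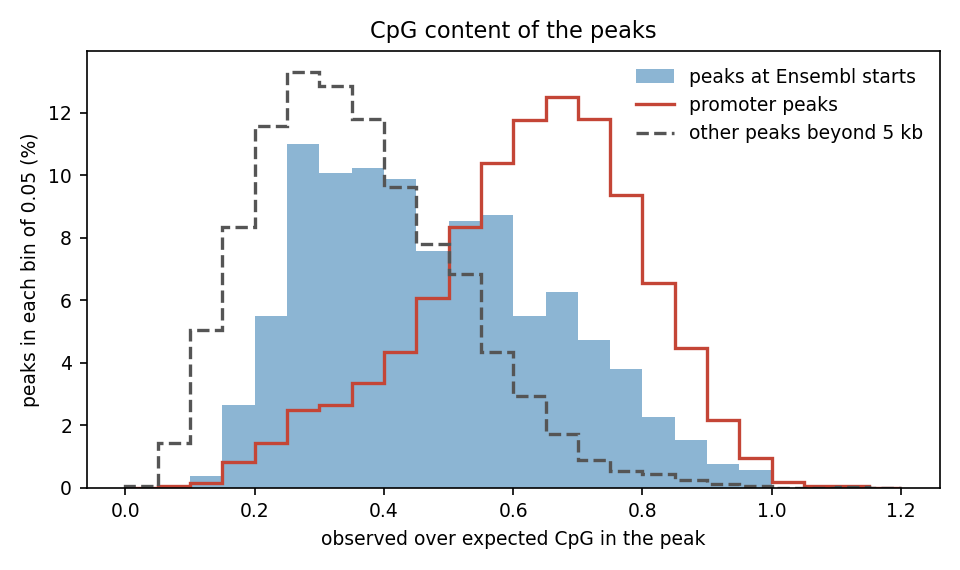
Share of peaks (percent, in bins of 0.05) by the observed over expected CpG ratio of the whole peak, for members (filled), promoter peaks (line) and other peaks beyond 5 kb (dashed line). The members, with a median of 0.452, lie between promoter peaks, with 0.643, and the other distal peaks, with 0.339.

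Fewer members than other distal peaks were centred on retrotransposons. The authors' detailed annotation gives each peak a single label, so a peak labelled CpG, exon or intron is not counted as a repeat. By that label, 27 peaks (5.12%, 3.54 to 7.35%) were centred on a LINE, LTR or SINE element, against 1.10% of promoter peaks and 45.6% of the other peaks beyond 5 kb. The last share came mainly from intergenic peaks (70.6%) and introns (39.3%), while it was 0.689% in exons and 4.88% at transcription termination sites. LINE elements accounted for 6 members (1.139%) and for 39.5% of the other distal peaks, while SINE elements accounted for 15 members (2.85%) and 1.90%. Pseudogenes had the highest share among the larger groups, with 13 of 81 peaks (16.05%), and starts of the named gene had 4 of 193. With LINE, LTR and SINE peaks left out on both sides, the ratio of median enrichment to the other distal peaks was 1.06.

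The Zeb1 motif [CT]N[CT]ACCTG was sought on both strands from 250 bases before to 50 bases after each Ensembl start. It was present at 106 of the 488 starts with the peak centre in the window, or 21.7% (18.3 to 25.6%). The same window at all 32851 RefSeq starts held it in 16.9%, a difference of 4.84 percentage points (1.39 to 8.73). The members' windows had more GC, with a median of 61.3% against 52.7%, and RefSeq windows weighted to the members' bins of GC held the motif in 16.8%. The shorter core CACCTG was present at 137 starts (28.1%), against 20.2% of RefSeq starts. By group, the longer motif was found at 25% (19.2 to 31.8%) of starts of the named gene, 24.8% (18.4 to 32.6%) of other coding starts, 12.5% (6.47 to 22.8%) of lncRNA starts and 18.8% of pseudogene starts, and the intervals of the coding and lncRNA groups overlap. In whole peaks it was present in 79.7% of members, 76.8% of promoter peaks and 76.5% of the other distal peaks, and the differences from both had intervals that include 0. Among the other distal peaks the share was 71.3% in intergenic sequence, 78.9% in introns, 83.7% in exons and 85.8% at transcription termination sites. Of the starts printed above, those of Kdm2b, Scube3 and Tmem178b belong to the coding groups and were chosen because they hold the motif. Such a match describes the letters of the window and is not evidence of a bound site.

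A promoter peak of the same gene accompanied most of the members at coding genes, a share without a matched background. Among the 340 members at coding genes, 198 (58.2%, 52.9 to 63.4%) had a promoter peak listed under the same Ensembl gene symbol. That share was not computed for other peaks, so it is not shown to be a trait of the members. The peak at the Ensembl start was higher in enrichment than the promoter peak in 93 and lower in 105, with a median ratio of 0.956 (0.906 to 1.03). Where a gene has several promoter peaks the highest was taken, which favours the promoter in this comparison. Neither position was thus regularly the higher, and across these genes, which are not independent replicates, Spearman's rho was 0.0639 and Pearson's r of log2 values 0.0618 (n = 198). Genes named after their values were seen differed in both directions. Pkdcc, the lowest ratio, had 3.35 at the Ensembl start and 18.5 at the promoter, and Scube3 had 13.8 and 5.07, a ratio of 2.72. Tcf4, which encodes an E-protein that itself binds E-boxes, had 3.8 at the internal start and 11.5 at the promoter. With the gene named in the list in place of the Ensembl gene, 282 of the 527 members (53.5%, 49.2 to 57.7%) had a promoter peak of that gene. The share was 50.5% in the other distal peaks, a difference of 3.06 percentage points whose interval (-1.39 to 7.46) includes 0. Among those distal peaks it was 40.7% in intergenic sequence, 57.4% in introns, 62.2% in exons and 62.5% at transcription termination sites. The members thus lay above the intergenic peaks alone.

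**Figure D5:**
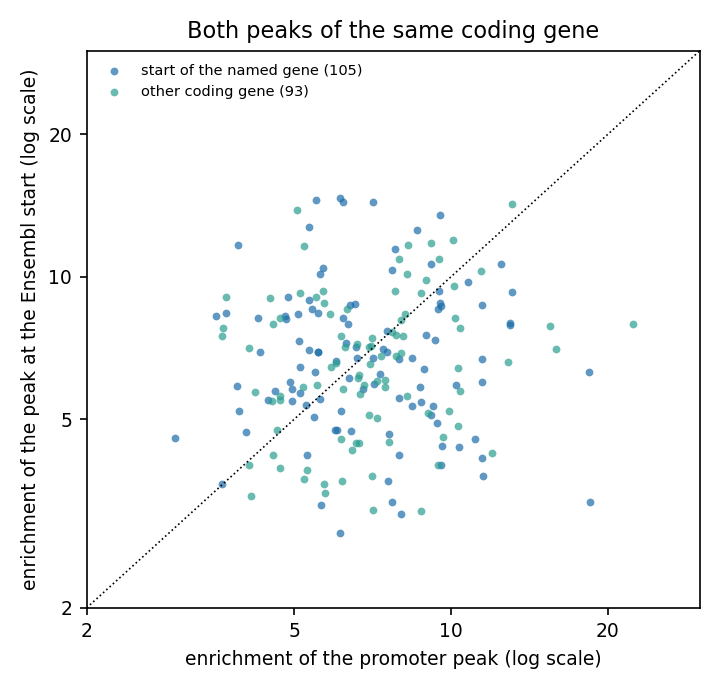
Zeb1 enrichment of the peak at the Ensembl start against that of the promoter peak of the same gene (both log scales) for 198 members at coding genes, with the line of equality dotted. The start was the higher in 93 and the lower in 105, with the highest promoter peak taken where a gene has several.

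The lists of genes, chosen with earlier results of these data known, held from 0 to 6 members each. Over the whole list of peaks the members are 3.02% and were listed under 493 of 12271 named genes (4.02%). Of the 30 peaks listed under 23 naive pluripotency genes, 1 was a member. It lay at the processed pseudogene Gm10420, 11464 bp from Nanog, and had an enrichment of 4.35 (34.5 treatment and 15.5 Input reads). Of the 31 peaks listed under 21 genes of EMT and of Zeb1's partners, 1 was a member. This peak lay at Gm26575, a sense-intronic transcript listed under Zeb1 itself, and had an enrichment of 7.70. Its centre lay on a LINE element 16735 bp from the RefSeq TSS. The lists of 28 mesendoderm and heart genes, 12 genes of DNA methylation and 11 of nitric oxide signalling had 63, 12 and 7 peaks, respectively. These 3 lists had 0 members.

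Of the 35 peaks listed under 22 Polycomb genes, 2 were members (5.71%, against 3.02% of all peaks). Both belonged to Kdm2b, the demethylase whose CXXC domain brings a variant Polycomb complex to CpG islands. The stronger lay in intron 6 of 22, 36458 bp from the TSS given in the list, and its enrichment was 12.7, from 74.7 treatment reads and 12 Input reads. The other was 11800 bp from the TSS given for it, with 38.5 and 11 reads and an enrichment of 7.0, and the promoter peak of Kdm2b had 5.35. The 29 imprinted genes had 3 members among the 39 peaks listed under them (7.69%, against 3.02% of all peaks). They had 1 more at the start of an imprinted gene in a peak listed under another gene, and the 3 highest of all these are given. Igf2, the fetal growth factor, had 10.6 at 6590 bp upstream, beside 12.5 at its promoter peak. Inpp5f, an inositol phosphatase gene with an imprinted variant, had 9.04 in a peak listed under Mcmbp, and Dlk1, a ligand related to the Notch ligands, had 6.30 in exon 5 of 5.

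Families of signalling and Hox genes had 4 members among the 183 peaks listed under them (2.19%) and 2 more at their starts in peaks listed under other genes, and the 3 highest are given. Fgfrl1, which encodes a receptor that binds fibroblast growth factors without a kinase domain, had 8.55 in intron 3 of 6, at 9921 bp, and 5.41 at its promoter. The processed pseudogene Gm5903, listed under Fgfr2, had 8.40 with 21.5 treatment reads, against 15.6 at the promoter peak of Fgfr2. The antisense transcript Gm15050 in the HoxA cluster had 7.94, listed under Hoxa2, whose own promoter peak had 7.81.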

How the data were processed

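The authors aligned reads to mm10 and, by their processing notes, used FastQC 0.11.2, STAR 2.4.2a, Picard 1.136, DESeq and HOMER 4.7. The deposited list gives, as the authors' means over the libraries, treatment and Input reads (signal), the enrichment over Input (ratio) and the distance to the TSS in bp. Its p-value is 0 for all 17435 peaks and was not used. The list's columns belong to no single library, so no test was made. Values were summarised by medians with order-statistic 95% intervals and shares by Wilson and Newcombe intervals. Starts came from GENCODE M21 and RefSeq, and sequence from GRCm38. Distances were read with positive values downstream, as 481 of the members matched the reference that way, although the list's legend states the reverse. The motif search was tested on simulated data. Scripts ran in Python 3.11.15 with pandas 2.3.3, pysam 0.24.0, NumPy 2.4.6, Matplotlib 3.10.9 and SciPy 1.17.1. Named members were the 10 highest and 3 lowest in enrichment, the 5 with most treatment reads, the 5 highest in each of the groups of named gene, other coding gene, lncRNA and pseudogene, and up to 3 for each gene list, and others are said to be chosen after their values were seen. No named member passed a rule that the printed stretch hold the motif and no annotated exon. Stretches with annotated exon sequence but no annotated UTR were therefore taken. Members and lists were chosen with earlier results of these data known.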

Additional observations from a re-analysis of the deposited data

How the results depend on the processing

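Of 29 alternatives, 16 left the value within 1.5 times (counts) or within its interval, 11 moved it and 2 turned its direction. The ratio of median enrichment to other peaks beyond 5 kb, 1.09, became 0.948 with an enrichment of at least 5, 0.961 in the same bins of GC and 1.01 in peaks of 1500 to 2500 bp, and the cause was not tested. With an enrichment of at least 5 the median of members was 7.30, by construction. The share with a RefSeq start was 30.2% within 500 bp, 45.4% within 5 kb and 17.3% for curated transcripts. The share whose named gene has a promoter peak was 44.4% within 1 kb and 43.6% with an enrichment of at least 5. The motif was at 12.1% of starts on the forward strand, at 28.1% with its core and, over the 488 members with the centre in the window, in 79.1% of whole peaks. Median GC was 61.4% in 500 bp at the centre. Leaving out each library needs values per library and was not run. The list holds only peaks that passed the authors' limits, at low read numbers, so that a start without a member is not shown to lack Zeb1, and enrichments over 5 Input reads or fewer rest on few reads.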

Other observations

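The list names a microRNA gene for 495 peaks, 22 of which (4.44%) are members, against 3.02% of all peaks. These were chosen after their values were seen. Of the 22 members, 8 lay at the start of a lncRNA and 13 at the start of a coding gene, with a median enrichment of 7.07 and a range from 3.8 to 10.6. Among the lncRNA starts, Gm11205 had 10.6 at 7394 bp from Mir193a, and Gm13067 had 10.1 at 19804 bp upstream of Mir34a, a microRNA gene induced by p53. AW047730 had 9.36 near Mir3093, Gm12915 7.6 near Mir698, Gm26887 7.6 near Mir23a, Gm27017 7.04 near Mir15a, and Mir155hg, the host transcript of Mir155, 7.27. Gm3294 had 4.8 near Mir129-1. At coding genes, the peak listed under Mir302b, a microRNA of pluripotent cells, lay at a start of Ank2 and had 67 treatment reads and an enrichment of 6.53, and Hoxd3 had 7.09 and 4.00 in a pair of peaks listed under Mir10b.

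Of the 503 Ensembl genes, 24 had 2 members, and those named here were chosen after their values were seen. Abr had 13.5 and 8.80, Kcnt1 14.4 and 8.20, Lmna, which encodes the A-type lamins, 14.4 and 6.75, and Cic, which encodes a repressor of receptor tyrosine kinase targets, 4.65 and 4.48. At Cacna1a, a calcium channel gene, the values were 5.50 and 5.61.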
